A study of Homo sapiens with 12 samples.

Results

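The genes described here are 7 matrix metalloproteinases (MMP1, MMP2, MMP7, MMP9, MMP10, MMP13 and MMP14) and 3 tissue inhibitors of metalloproteinases (TIMP1, TIMP2 and TIMP3), taken by gene symbol from a table of 62754 genes, so 10 of 62754. The selection was by symbol and not by a threshold on measured values, although earlier results of these data were known when the genes were chosen. They were followed in PC9, a human lung adenocarcinoma line that depends on mutant EGFR, in 12 RNA sequencing libraries forming 4 groups of 3. Untreated WT is the line with intact TDP1 and no drug. DTC (drug-tolerant cells) is the same wild-type line after 7 days in 1 µM erlotinib, an inhibitor of the EGFR kinase, and DTEC (drug-tolerant expanded cells) is that line after 28 days in the same dose. KO is the untreated TDP1 knockout line named KO2, which is a single knockout line. TDP1 is an enzyme that repairs DNA to which topoisomerase I has become trapped. All 4 groups derive from a subclonal PC9 line, and the replicate cultures of a condition were split from a shared flask before being grown apart. The p-values therefore measure the spread between such cultures and not between separately derived lines.

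MMPs are zinc-dependent endopeptidases that cut the proteins of the extracellular matrix and many cell-surface proteins. Most are secreted as inactive proenzymes and are activated when the propeptide is cut away, while MMP14 sits in the plasma membrane and is active there. TIMPs bind the active site of MMPs and block it. TIMP2 has an additional role: bound to MMP14 at the cell surface it acts as a docking partner for pro-MMP2, which a neighbouring free MMP14 then activates. In lung tumours these proteases are made by tumour cells and by stromal and immune cells, and they are best known for their part in invasion and matrix remodelling.

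The MMP members sit in several parts of the genome (GRCh38, spans of the GENCODE 29 genes). MMP7 (chr11:102520508-102530753), MMP10 (chr11:102770503-102780628), MMP1 (chr11:102789920-102798160) and MMP13 (chr11:102942995-102955734) lie on the minus strand of a single stretch of chromosome 11. MMP14 lies at chr14:22836557-22849027, MMP2 at chr16:55389700-55506691 and MMP9 at chr20:46008908-46016561, all on the plus strand. TIMP2 lies at chr17:78852977-78925387 on the minus strand, TIMP3 at chr22:32801701-32863043 and TIMP1 at chrX:47582313-47586789, both on the plus strand. The expression values below derive from the deposited expected count of each gene, with no separation by transcript.

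The start regions of the members differ in kind. RefSeq (GRCh38.p14) start regions were at hand for 5 of the 10 members, and 4 are printed here to show 3 proteases that rose in DTC beside the inhibitor that took another course. Each is the 250 bases before the annotated start, 5′ to 3′ on the strand of the gene, with motif matches in capitals. The first motif searched was the AP-1 site, TGAGTCA, on both strands. The second was the TATA box in the form TATAAA, searched on the strand of the gene only. The last was the GC box, GGGCGG, on both strands, so that a match on the opposite strand is seen in capitals as its reverse complement. None of these matches overlapped another. The windows are chr11:102530748-102530997 on the minus strand for MMP7, chr11:102780629-102780878 on the minus strand for MMP10, chr14:22836335-22836584 on the plus strand for MMP14 and chr22:32801455-32801704 on the plus strand for TIMP3.
MMP7: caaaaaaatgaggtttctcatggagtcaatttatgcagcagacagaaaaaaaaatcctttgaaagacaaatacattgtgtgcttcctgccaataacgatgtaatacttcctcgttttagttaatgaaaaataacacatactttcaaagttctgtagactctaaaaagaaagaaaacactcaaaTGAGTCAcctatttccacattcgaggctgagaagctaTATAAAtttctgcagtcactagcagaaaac
MMP10: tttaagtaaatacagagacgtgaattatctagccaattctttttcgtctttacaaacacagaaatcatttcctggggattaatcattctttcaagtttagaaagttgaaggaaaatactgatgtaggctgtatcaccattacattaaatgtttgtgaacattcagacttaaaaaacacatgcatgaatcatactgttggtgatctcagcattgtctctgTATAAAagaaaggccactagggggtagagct
MMP14: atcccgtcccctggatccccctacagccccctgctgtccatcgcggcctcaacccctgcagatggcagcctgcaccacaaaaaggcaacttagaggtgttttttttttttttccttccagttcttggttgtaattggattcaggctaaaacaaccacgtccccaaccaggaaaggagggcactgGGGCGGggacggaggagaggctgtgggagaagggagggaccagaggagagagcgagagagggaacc
TIMP3: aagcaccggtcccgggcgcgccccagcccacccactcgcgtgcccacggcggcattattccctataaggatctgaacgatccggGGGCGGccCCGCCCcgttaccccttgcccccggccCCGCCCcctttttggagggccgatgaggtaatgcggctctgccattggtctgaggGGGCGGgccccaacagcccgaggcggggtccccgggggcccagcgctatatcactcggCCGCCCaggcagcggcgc

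The MMP7 window was 33.6% G and C and held a TATAAA whose first base lay 30 bases before the start and a TGAGTCA 67 bases before it. The MMP10 window was 34.4% G and C and held a TATAAA 31 bases before the start. The MMP14 window was 56.8% G and C and held a single GC box 66 bases before the start, and the TIMP3 window was 72.4% G and C and held 5 GC boxes. TIMP1, whose window is not printed, had 2 GC boxes at 64.8% G and C. Among 35116 RefSeq windows of the same length, 4.2% held the AP-1 letters, 6.8% the TATA letters and 42.6% a GC box. These are matches of letters and say nothing about which factors bound.

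The libraries held 25572691 to 38373679 reads assigned to genes. TDP1 itself, at 26.3 ± 1.60 CPM in untreated WT (SD, n = 3; CPM are counts scaled to a common library total, here after TMM scaling), was at 10.8 ± 0.647 CPM in KO, the direction that the knockout label calls for. All 10 epithelial markers were above 1 CPM in every group, and summed to 11500 to 12100 CPM for untreated WT, 6940 to 8080 for DTC, 10200 to 13100 for DTEC and 12200 to 13000 for KO. Markers of fibroblasts, which also make MMPs and TIMPs, summed to 8.03 to 9, 56 to 58.4, 11.2 to 14.3 and 13.5 to 15.1 CPM in the same order of groups, and COL1A1 was the only 1 of the 10 above 1 CPM in any group. Immune markers summed to 28.4 to 35.6, 57 to 76.9, 37.6 to 44.8 and 28.3 to 31.9 CPM in the same order. Of these 10, PTPRC, which defines leukocytes, was at no more than 0.0896 CPM in any group mean and ELANE was at 0 throughout, while CSF1R went from 0.384 to 9.57 CPM and ITGAM from 1.3 to 10.4 CPM between untreated WT and DTC. Endothelial markers summed to 75.8 to 84.7, 60.9 to 69.8, 142 to 154 and 100 to 104 CPM in the same order. Of these, PECAM1 was at 32, 8.77, 92.1 and 48.4 CPM, CDH5 at 27.7, 35, 36.7 and 28 CPM and EGFL7 at 21.1, 18.6, 17.4 and 25.3 CPM. VWF was above 1 CPM in DTC alone (1.57), KDR and TEK were below 1 CPM throughout, and CLDN5 and ERG were at 0 in every group. The part of these markers in the results below was not tested.

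**Figure D1:**
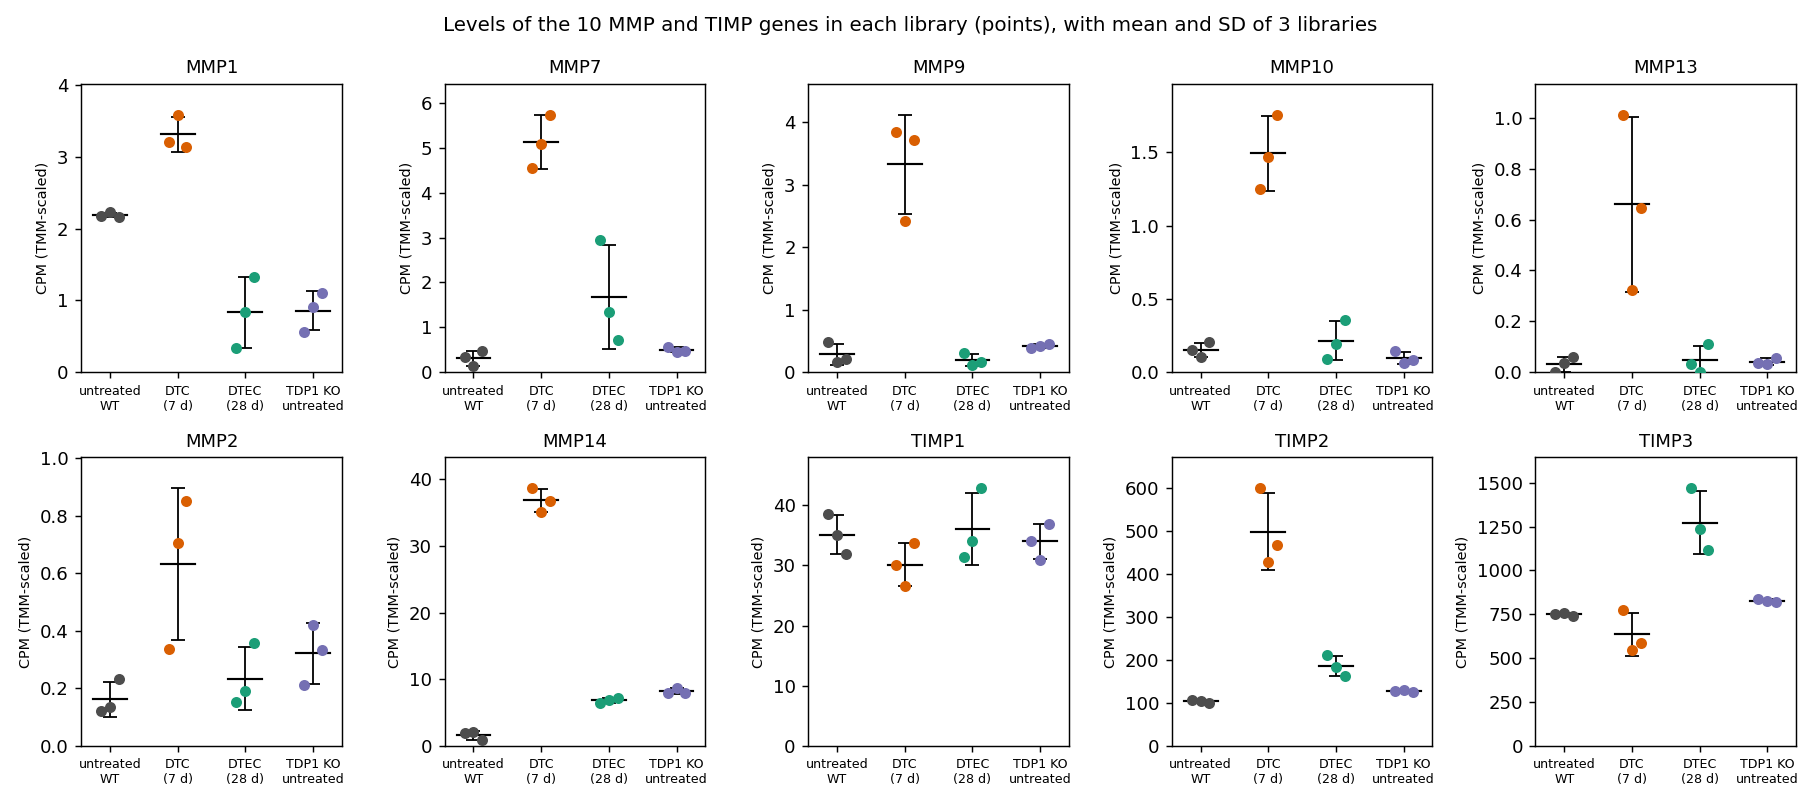
Level of each of the 10 genes in CPM (y axis, linear, a separate scale for each gene) in the 4 groups (x axis). Points are single libraries, the long bar is the mean and the error bar the SD of 3 libraries. MMP14 and TIMP2 stand highest in DTC in all 3 libraries, TIMP3 stands highest in DTEC, and the 4 groups of TIMP1 lie close together.

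Treatment with erlotinib for 7 days came with a broad increase of MMP transcripts and, among the 3 TIMP members, of TIMP2 alone. Against untreated WT, 7 of the 10 members were called higher in DTC and 0 lower, a call being an adjusted p under 0.05 in edgeR's quasi-likelihood test. Among all 17115 genes tested, 34% were called higher, 33.3% lower and 67.3% in either direction, so that a call alone is common in this comparison. The median log2 change of the 7 MMPs was 3.53 and that of the 3 TIMPs was -0.22, beside 0.06 over all genes tested. Of the genes called, 50.5% were higher with TMM scaling, 68.4% with library totals alone and 65% with the upper quartile. With these, the median log2 value over all genes lay 0.355 and 0.288 above its TMM value. In these bulk samples a change in the share of cells that make a transcript and a change in the amount per cell cannot be told apart.

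The collagenases and the stromelysin of the set, which cut fibrillar collagens and a wide range of other matrix proteins, were scarce before treatment. MMP1, interstitial collagenase, had 73, 66 and 75 counts in the untreated WT libraries and 95, 122 and 107 in DTC. All 3 DTC libraries were above all 3 untreated WT libraries, yet the difference was small, from 2.19 ± 0.0325 to 3.31 ± 0.244 CPM (log2 change 0.60, SE 0.33, adjusted p 0.126). It was called with library totals alone (adjusted p 0.0203), with the upper quartile (0.0302) and when the compared libraries were fitted alone (0.0184). MMP13, collagenase 3, had 0, 1 and 2 counts in untreated WT and 30, 11 and 22 in DTC. The groups did not overlap, and the summed counts of 63 against 3 give a ratio of 21.03 (95% counting interval 6.88 to 104.7). Its fitted change was 4.26 (SE 0.83, adjusted p 0.000376) and went to 5.08 without untreated WT replicate 3, which held 2 of the 3 untreated counts. MMP10, stromelysin 2, had 5, 3 and 7 counts in untreated WT and 37, 50 and 60 in DTC, again with no overlap (log2 change 3.26, SE 0.48, adjusted p 3.18e-05). MMP10 and MMP13 passed the filter on low counts only through the DTC libraries, so they had to differ in order to be tested. Their calls add nothing to the count above, and their part in the MMP median given with it supports nothing.

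Matrilysin and the gelatinases also rose. MMP7, matrilysin, a small secreted protease made by epithelial cells, had 11, 4 and 16 counts in untreated WT and 135, 173 and 196 in DTC. Its level went from 0.308 ± 0.164 to 5.13 ± 0.593 CPM (log2 change 4.02, SE 0.47, adjusted p 3.95e-06). MMP9, gelatinase B, had 16, 5 and 7 counts in untreated WT and 114, 82 and 127 in DTC. Every DTC library was thus several fold above every untreated library (log2 change 3.53, SE 0.40, adjusted p 2.44e-06), and the change was 4.17 without untreated WT replicate 1, the library with 16 counts. MMP2, gelatinase A, stayed near the floor of detection, with 4, 4 and 8 counts in untreated WT and 10, 24 and 29 in DTC. The groups did not overlap and MMP2 was called (log2 change 1.94, SE 0.52, adjusted p 0.00449), but at 0.632 ± 0.264 CPM it was the lowest of the 10 members per kb in DTC.

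MMP14, the membrane-type protease, had the largest fitted change of the 10 with all libraries, although MMP13 was above it without untreated WT replicate 3 (5.08 against 4.23). It had 62, 63 and 29 counts in untreated WT and 1144, 1192 and 1253 in DTC. The DTC libraries lay close to each other and far above every untreated library, with means of 36.8 ± 1.79 and 1.60 ± 0.679 CPM, a 23.1-fold difference (log2 change 4.53, SE 0.22, adjusted p 6.45e-10). Across 15 alternatives the log2 value ran from 4.23 to 4.89.

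Among the 3 TIMP members, TIMP2 alone was called. It stood at 106.6, 104.1 and 100.7 CPM in untreated WT and at 599.2, 427.6 and 467.6 CPM in DTC. No libraries overlapped, and the mean went from 103.8 ± 2.97 to 498.2 ± 89.8 CPM, 4.8-fold (log2 change 2.26, SE 0.13, adjusted p 3.12e-09). TIMP1, a broad inhibitor that binds pro-MMP9, stood at 38.5, 35.01 and 31.93 CPM in untreated WT and 30.01, 26.58 and 33.75 CPM in DTC. The groups overlapped (log2 change -0.22, SE 0.13, adjusted p 0.152), and the sign turned to 0.13 with library totals alone and 0.07 with the upper quartile. TIMP3, the inhibitor that binds to the matrix itself, stood at 753.8, 758.9 and 742.5 CPM in untreated WT and 776.3, 546.6 and 586.3 CPM in DTC. DTC replicate 1 was above the untreated libraries and the other DTC libraries were below them (log2 change -0.24, SE 0.13, adjusted p 0.119). Without that library TIMP3 was called lower (-0.37, adjusted p 0.00286), and with library totals alone or the upper quartile its sign turned (0.11 and 0.04).

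**Figure D2:**
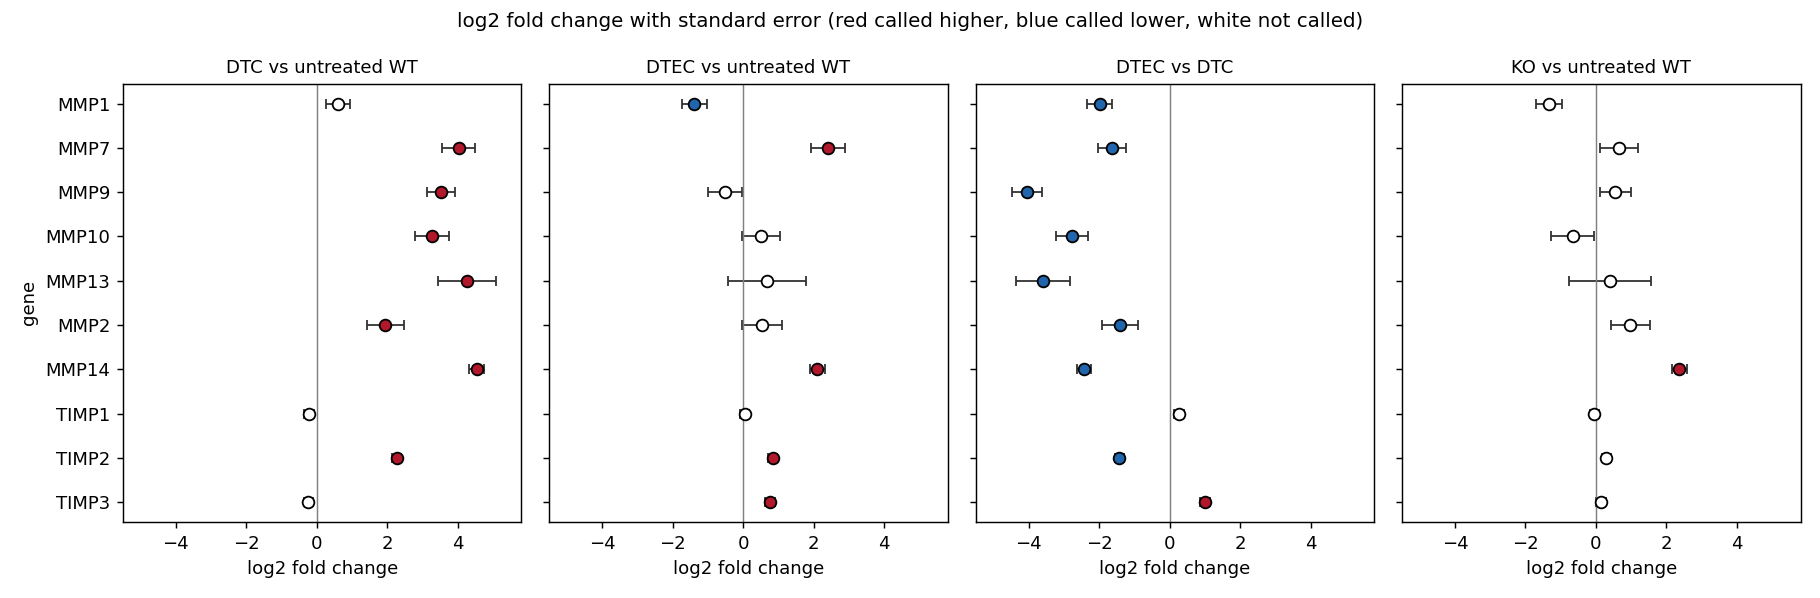
Fitted log2 change of each gene (x axis) in the 4 comparisons (panels), with its standard error as a bar. Red points were called higher, blue points lower and white points not called at an adjusted p of 0.05. In DTC 7 genes are red, from DTC to DTEC 8 are blue and TIMP3 is red, and in KO MMP14 alone is red. The signs of TIMP1 and TIMP3 in DTC and of TIMP1 in KO turn with library totals alone.

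After 28 days in erlotinib the pattern was narrower. Against untreated WT, 4 of the 10 members were called higher in DTEC and 1 lower, where 26% of all genes tested were called higher, 26.3% lower and 52.3% in either direction. Of all genes called, 49.7% were higher with TMM scaling and 63.7% with library totals alone. The members called higher were MMP7, MMP14, TIMP2 and TIMP3, and MMP1 was the member called lower.

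MMP14 had 213, 179 and 260 counts in DTEC, all above the untreated libraries, and its mean of 6.82 ± 0.330 CPM was 4.29-fold the untreated mean (log2 change 2.10, SE 0.22, adjusted p 2.53e-06). MMP7 had 97, 35 and 26 counts. All 3 were above the untreated libraries but they were far from each other, with DTEC replicate 1 the highest (log2 change 2.40, SE 0.48, adjusted p 0.000865, and 1.69 without that replicate). MMP1 had 11, 22 and 48 counts, all below the 66 to 75 of untreated WT, and fell by 1.38 on the log2 scale (SE 0.36, adjusted p 0.00516) to 38% of the untreated level.

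The other MMP members were not called at 28 days. MMP9 had 10, 3 and 6 counts (log2 change -0.52, adjusted p 0.388), MMP10 had 3, 5 and 13 (0.50, adjusted p 0.461), MMP2 had 5, 5 and 13 (0.53, adjusted p 0.451) and MMP13 had 1, 0 and 4 (0.68, adjusted p 0.635). Each of these overlapped untreated WT. At such counts only large differences would be detectable: for MMP13 the ratio of 5 against 3 summed counts was 1.71 with a 95% counting interval of 0.332 to 11.

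At 28 days TIMP2 and TIMP3 were called higher and TIMP1 was not called. TIMP2 was at 210.4, 183.2 and 163 CPM, above every untreated library (log2 change 0.84, SE 0.13, adjusted p 7.31e-05). TIMP3 was at 1469, 1234 and 1115 CPM against 742.5 to 758.9 in untreated WT, with no overlap, and its mean of 1273 ± 180 CPM was 1.69-fold higher (log2 change 0.76, SE 0.13, adjusted p 0.000252). TIMP1 was at 31.4, 34.07 and 42.84 CPM, on both sides of the untreated libraries (log2 change 0.04, SE 0.13, adjusted p 0.822).

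The direct comparison of 28 with 7 days showed 8 members lower in DTEC, 1 higher and 1 not called, where 26.6% of all genes tested were called lower, 28.8% higher and 55.4% in either direction. Of all genes called, 51.9% were higher with TMM scaling, 37.4% with library totals alone and 38.7% with the upper quartile. All 7 MMPs were among the 8, with a median log2 change of -2.43 beside -0.01 over all genes. MMP10 and MMP13 were tested only because of their level in DTC, so their place in this count and median was fixed by the filter and supports nothing. The log2 change was -4.05 for MMP9 (SE 0.42, adjusted p 2.33e-06), -3.58 for MMP13 (SE 0.76, adjusted p 0.0012), -2.77 for MMP10 (SE 0.46, adjusted p 0.000165) and -2.43 for MMP14 (SE 0.19, adjusted p 1.51e-07). Without DTEC replicate 3, which had the most counts of both, the MMP13 value was -5.04 and the MMP10 value -3.44. MMP1 fell by 1.98 (SE 0.36, adjusted p 0.000328) and MMP7 by 1.62 (SE 0.40, adjusted p 0.00335), the latter by 2.36 without DTEC replicate 1. MMP2 was called at -1.41 (SE 0.50, adjusted p 0.0276), but its groups overlapped and the call was lost with no low-count filter (0.0696) and without DTEC replicate 1 (0.106), DTEC replicate 2 (0.088), DTC replicate 2 (0.0714) or DTC replicate 3 (0.122).

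TIMP2 fell by 1.43 (SE 0.13, adjusted p 5.16e-07) from DTC to DTEC, while TIMP3 rose by 1.00 (SE 0.13, adjusted p 2.2e-05), each with no overlap between the groups. TIMP1 was not called (0.26, SE 0.13, adjusted p 0.108). TIMP2 kept its direction and its call in 15 of 15 alternatives, as did TIMP3. The comparisons of DTEC with DTC and of each with untreated WT share libraries, so their values are set side by side here and are not independent.

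In the TDP1 knockout line without drug, MMP14 was higher and the other members were not called. That is 1 of the 10 members, where 4.31% of all genes tested were called and 2.76% were called higher. MMP14 had 227, 268 and 285 counts in KO against 62, 63 and 29 in untreated WT. Its mean of 8.17 ± 0.436 CPM was 5.13-fold higher, with no overlap (log2 change 2.36, SE 0.22, adjusted p 2.27e-05), and across 15 alternatives the log2 value ran from 2.06 to 2.63. The KO libraries, at 7.88 to 8.68 CPM, also lay just above the DTEC libraries, at 6.49 to 7.15 CPM, and far below the DTC libraries, a set of levels that was not tested. Untreated WT replicate 3, at 0.836 CPM, was the lowest of the untreated libraries, and the others were at 1.85 and 2.13 CPM. KO and the drug-treated groups were compared with the same untreated libraries. Of all genes called in KO, 64.1% were higher with TMM scaling and 78.8% with library totals alone.

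The call for MMP1 in KO depended on the fit. It had 16, 28 and 40 counts, all below the 66 to 75 of untreated WT, at 39.2% of the untreated level (log2 change -1.34, SE 0.36, adjusted p 0.0516). It was called in 4 alternatives: with no low-count filter (adjusted p 0.0023), with the replicate number as a block (0.0291), with DESeq2 (0.0105) and with the compared libraries fitted alone (0.00595). TIMP2, at 127.6, 129.3 and 124.2 CPM, and TIMP3, at 839.5, 827 and 820 CPM, were above all untreated libraries but close to them (log2 changes 0.29 and 0.14, adjusted p 0.252 and 0.646). Fitted with the compared libraries alone, both were called (0.00142 and 0.0264).

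The remaining members in KO overlapped untreated WT. MMP7 had 16, 14 and 17 counts (log2 change 0.65, adjusted p 0.6), MMP9 had 11, 13 and 16 (0.55, adjusted p 0.589), MMP2 had 6, 13 and 12 (0.97, adjusted p 0.407) and MMP10 had 4, 2 and 3 (-0.66, adjusted p 0.642). MMP13 had 4 counts in KO and 3 in untreated WT over 3 libraries each, too few for a comparison. TIMP1 was at 34.12, 30.98 and 36.91 CPM (-0.05, adjusted p 0.901). The sign of TIMP1 turned with library totals alone (0.02).

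Divided by the length of the exons, the levels of different genes can be compared. In untreated WT the order ran from TIMP3, at 163 CPM per kb, through TIMP1 at 22.8 and TIMP2 at 18.4 to MMP1 at 1.11 and MMP14 at 0.359, and the remaining MMPs lay at or below 0.133. TIMP3 kept the first place in all 4 groups. TIMP2 passed TIMP1 in DTC (88.4 against 19.5 CPM per kb) and in DTEC (32.9 against 23.4), while in KO the levels of TIMP2, 22.1 to 22.96, lay inside the TIMP1 range of 20.1 to 23.95. MMP14 was the highest of the 7 MMPs in DTC, DTEC and KO (8.25, 1.53 and 1.83 CPM per kb), the place that MMP1 held in untreated WT.

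The make-up of the MMP transcript pool changed accordingly. MMP1 made up 60.1% ± 3.59 of the summed level of the 7 MMPs per kb in untreated WT, against 11.4% ± 1.4 for DTC, 14.6% ± 8.62 for DTEC and 15.5% ± 4.39 for KO. MMP14 made up 19.2% ± 7.79 before treatment, 55.8% ± 1.90 at 7 days, 52.2% ± 5.00 at 28 days and 65.7% ± 3.36 in the knockout line. Among the 3 TIMPs, the share of TIMP2 was 9.01% ± 0.0912 before treatment, 35.9% ± 0.200 at 7 days, 9.89% ± 0.203 at 28 days and 10.04% ± 0.243 in the knockout line, and TIMP3 supplied most of the rest.

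**Figure D3:**
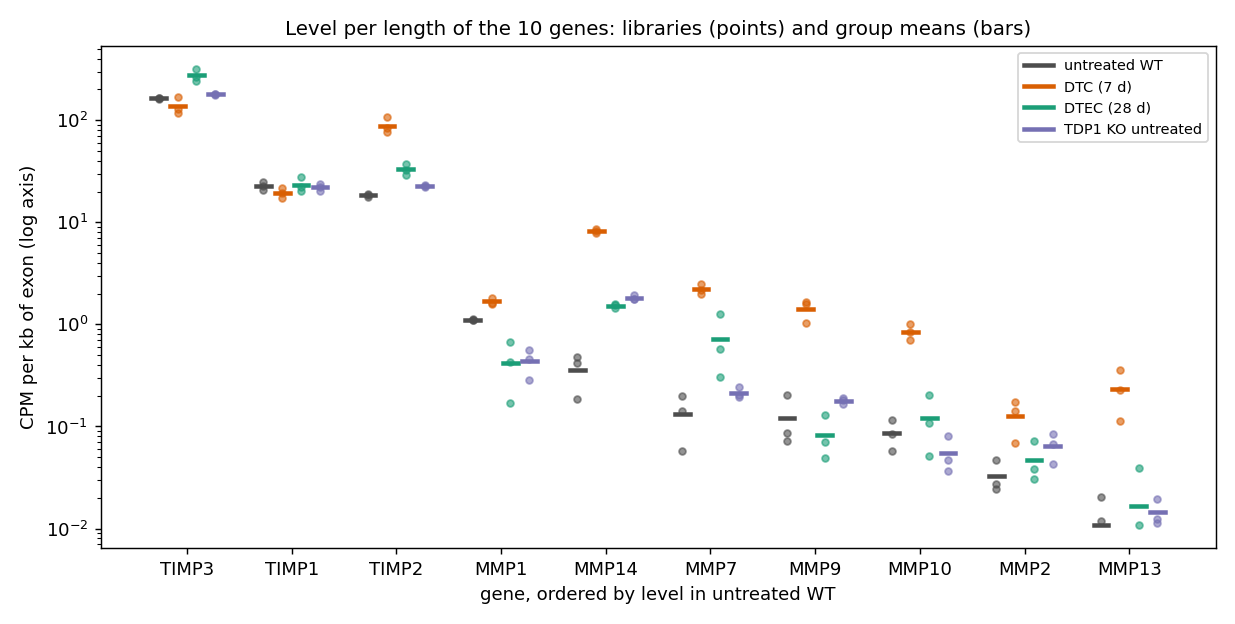
Level of each gene in CPM per kb of exon (y axis, log scale), with genes ordered by their level in untreated WT (x axis). Points are libraries and bars are group means, and the 2 libraries in which MMP13 had 0 counts cannot be drawn on a log axis. TIMP3 is highest in every group, and MMP14 is the highest MMP in DTC, DTEC and KO.

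Ratios of inhibitor to protease transcripts were taken within each library. Transcripts of TIMP2 outnumbered those of MMP14 per kb by 45.6, 38.8 and 95.4 to 1 in the untreated WT libraries. The DTC libraries gave 12.3, 9.66 and 10.1, the DTEC libraries 25.7, 21.2 and 18.1, and the KO libraries 12.7, 11.8 and 12.5. The untreated libraries were the highest and the most spread, with 29 to 63 counts of MMP14, and the DTC and KO libraries overlapped. The ratio in DTC thus came with higher levels of both genes, and that in KO with a higher level of MMP14. The summed level of the 3 TIMPs was 110.5 ± 4.81 times that of the 7 MMPs in untreated WT. The corresponding factor was 16.6 ± 2.55 for DTC, 113 ± 10.8 for DTEC and 80.7 ± 5.55 for KO. These ratios concern transcripts and not the amounts of protein.

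The ratio depends on which genes are summed. Summed over 23 MMPs and 4 TIMPs, a choice made after seeing the data, it was 11.7 ± 1.47 for untreated WT, 5.95 ± 0.677 for DTC, 15.3 ± 1.95 for DTEC and 8.50 ± 0.388 for KO. DTC was again the lowest group, with libraries from 5.55 to 6.73 against 10.8 to 13.4 in untreated WT, but the gap between the groups was smaller. The 7 members made up 10.02% of the summed MMP level in untreated WT and 34.95% in DTC. MMP15, a membrane-type protease related to MMP14, had 16.2 CPM per kb before treatment, 13.4 at 7 days, 17.5 at 28 days and 23.97 in the knockout line, above MMP14 in every group.

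**Figure D4:**
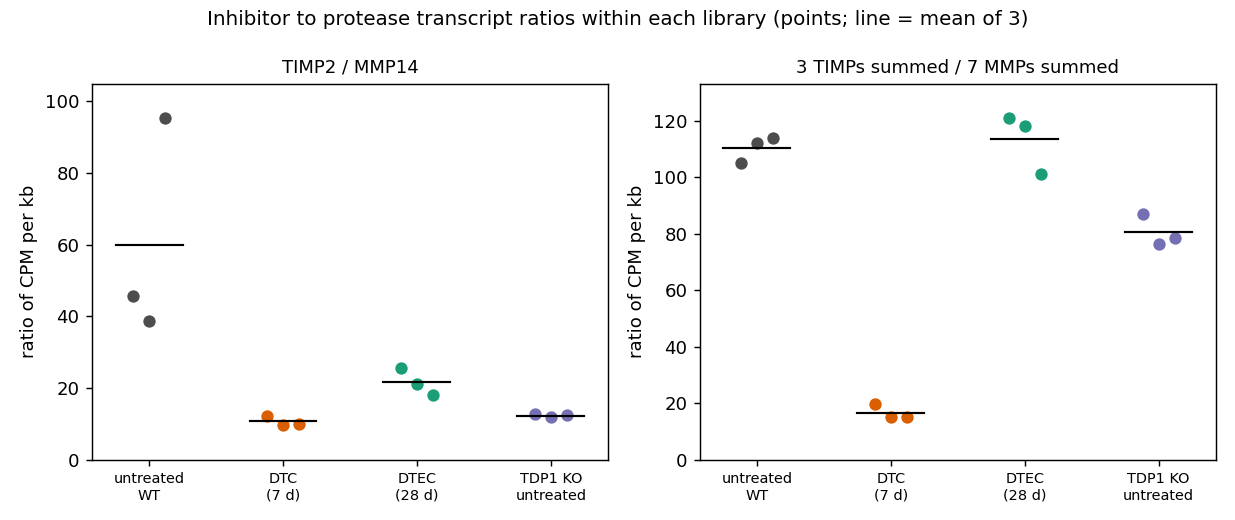
Ratio of TIMP2 to MMP14 (left) and of the 3 summed TIMPs to the 7 summed MMPs (right), each as a ratio of CPM per kb within a library (y axis, linear). Points are libraries and lines are means of 3. DTC is lowest in the right panel, at 15.1 to 19.6, and untreated WT is highest in the left panel, at 38.8 to 95.4.

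The 4 members on chromosome 11 belong to a cluster of 9 MMP genes, which were the only protein-coding genes within its 435.2 kb. In DTC 5 of the 9 had a mean above 0.5 CPM (MMP7, MMP10, MMP1, MMP12 and MMP13), and the same 5 passed the filter on low counts. MMP12, macrophage elastase, was at 0 counts in all 3 untreated WT libraries, at 200, 195 and 178 in DTC, at 0 in all 3 DTEC libraries and at 3, 3 and 0 in KO. It was therefore at least 191-fold higher in DTC than in untreated WT, computed against 3 counts over the untreated group. MMP12 and MMP9 are also made by macrophages, and the summed level of the immune markers given above was higher in DTC. CD68, the most abundant of them, was at 29.8 CPM in untreated WT and 46.4 CPM in DTC. PTPRC was at 0.0896 CPM in DTC and ELANE at 0. The part of these markers in the levels of MMP12 and MMP9 was not tested. MMP20, MMP27 and MMP8 had no more than 3 counts in any library and MMP3 no more than 9. The neighbours on either side, chosen after their values were seen, did not move as a block in DTC: BIRC2 was higher (1.55, adjusted p 8.34e-09), TMEM123 slightly higher (0.33, adjusted p 0.0223), DCUN1D5 lower (-0.87, adjusted p 1.36e-05) and DYNC2H1 not called (0.14, adjusted p 0.567).

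**Figure D5:**
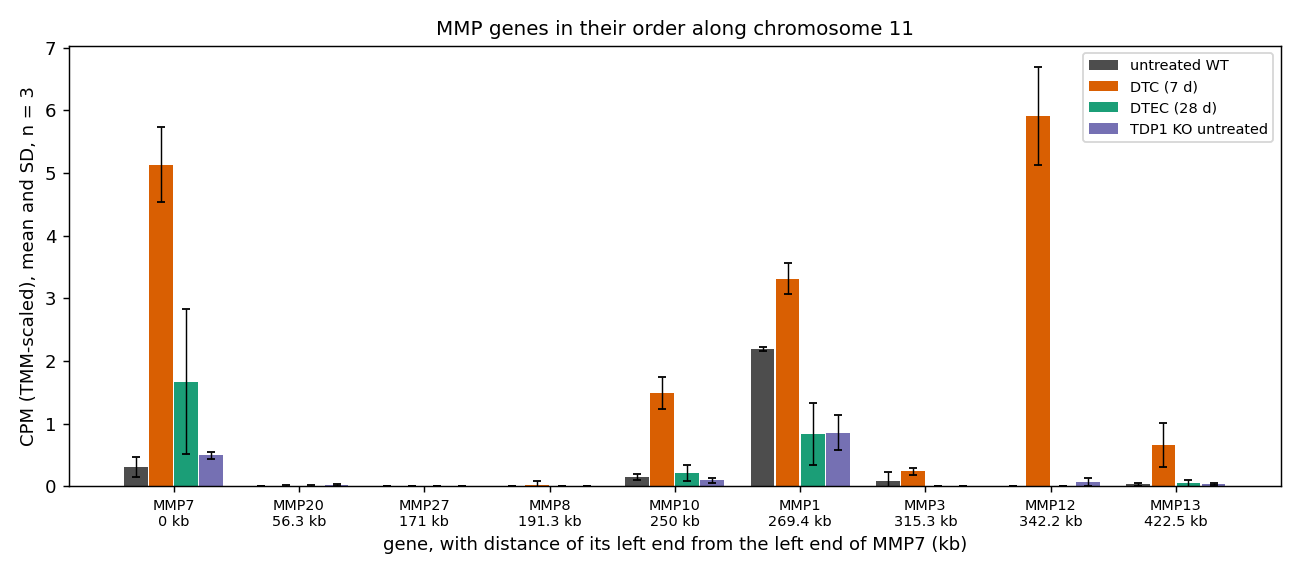
Level in CPM (y axis, linear) of the 9 MMP genes of the chromosome 11 cluster in their order along the chromosome, with the distance from the left end of MMP7 in kb (x axis). Bars are means and error bars the SD of 3 libraries. MMP7, MMP10, MMP12 and MMP13 are high in DTC alone or mainly there, MMP1 is present in every group, and MMP20, MMP27 and MMP8 are near 0.

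The rest of the family was read from a list of 17 other MMP and TIMP genes, of which 11 passed the filter on low counts. In DTC 7 were called higher and 2 lower, with a median log2 change of 2.56, beside 34% higher and 33.3% lower among all genes tested. MMP24, a membrane-type protease best known in neurons, went from 0.738 ± 0.320 to 32.9 ± 3.26 CPM (5.46, SE 0.38, adjusted p 4.89e-08), and reached 7.45 CPM per kb there, beside 8.25 for MMP14. The lower genes, named because they were few, were TIMP4, from 20.5 ± 1.31 to 10.7 ± 1.80 CPM (-0.94, adjusted p 2.33e-05), and MMP15 (-0.27, adjusted p 0.0367), whose libraries overlapped, whose call held in 4 of 15 alternatives and whose sign turned with library totals alone. In DTEC 4 were called higher and 0 lower, beside 26% and 26.3% of all genes tested. Among the 4 were MMP24 (2.83, SE 0.38, adjusted p 4.8e-05) and MMP11 (1.36, SE 0.22, adjusted p 0.000164), the called genes with a mean of at least 1 CPM. From DTC to DTEC 7 fell and 2 rose, beside 26.6% and 28.8% of all genes tested. MMP12 was at 0 counts in DTEC, at least 186.6-fold lower, and MMP19, a widely expressed secreted MMP, was at -2.77 (SE 0.28, adjusted p 1.94e-06). Outside DTC no library had more than 3 counts of MMP12, 7 of MMP28 or 13 of MMP23B. These genes passed the filter on low counts only through DTC. Their calls in DTC and from DTC to DTEC, and their part in the DTC median, support nothing.

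In KO 2 genes of that list were called higher and 1 lower, beside 2.76% and 1.55% of all genes tested. MMP15 went from 71.4 ± 9.31 to 105.9 ± 4.27 CPM (0.57, SE 0.11, adjusted p 0.00818), a call lost without KO replicate 2 or untreated WT replicate 1 (highest adjusted p 0.0527). MMP11, stromelysin 3, was at the threshold (0.85, SE 0.23, adjusted p 0.0498), and the call held in 7 of 15 alternatives. MMP16, named for being the only lower gene, had 8 counts in KO and 51 in untreated WT (-2.60, SE 0.56, adjusted p 0.0177), and its adjusted p reached 0.0996 when single libraries were left out.

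Proteases and inhibitors that act around the MMPs were called in both directions. Of 22 activators and surface regulators, such as the plasminogen activators, furin-type convertases and RECK, 19 were tested. In DTC 8 were called higher and 7 lower (12 and 3 with library totals alone), shares near the 34% and 33.3% of all genes tested. SERPINB2, an inhibitor of plasminogen activators, went from 0 in every untreated WT library to 39.8 ± 6.53 CPM in DTC. It was lower again in DTEC, at 0.0193 ± 0.0168 CPM. SERPINB2 passed the filter on low counts only through DTC, so its calls in DTC and from DTC to DTEC support nothing. In DTEC against untreated WT 7 were called higher and 4 lower, beside 26% and 26.3% of all genes tested. The higher genes were led by TMPRSS4, a membrane serine protease (3.74, SE 0.28, adjusted p 2.56e-07), and PLAT, tissue plasminogen activator (1.55, SE 0.11, adjusted p 1.04e-07). From DTC to DTEC 7 rose and 6 fell, beside 28.8% and 26.6% of all genes tested. In KO 3 were higher and 2 lower, beside 2.76% and 1.55% of all genes tested, with PLAT at 0.93 (SE 0.11, adjusted p 0.000319).

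Genes of the related ADAM and ADAMTS families, which include proteases that TIMP3 also inhibits, were likewise called in both directions. Of 14 tested of 16, 6 were called higher and 3 lower in DTC (10 and 2 with library totals alone), beside 34% and 33.3% of all genes tested. ADAMTS6 went from 1.21 ± 0.215 to 15.03 ± 0.971 CPM and ADAMTS9 from 14.07 ± 1.05 to 44.9 ± 16.7 CPM. ADAMTS1, named after its values were seen, was at 0 CPM in untreated WT and 1.61 ± 0.149 CPM in DTC. It passed the filter on low counts only through DTC. Its calls in DTC and from DTC to DTEC are part of the counts given here and support nothing. In DTEC 4 were higher and 5 lower, beside 26% and 26.3% of all genes tested. ADAMTS9 was down to 3.49 ± 0.290 CPM there (-2.02, SE 0.21, adjusted p 3.7e-06). ADAMTSL4, an ADAMTS-like gene that is not itself counted as a protease, was up (1.67, SE 0.15, adjusted p 8.36e-07). From DTC to DTEC 3 rose and 7 fell, beside 28.8% and 26.6% of all genes tested. ADAMTS6 fell by 4.85 (SE 0.26) and ADAMTS9 by 3.69 (SE 0.22) on the log2 scale. In KO 0 were higher and 1 was lower, beside 2.76% and 1.55% of all genes tested. The lower gene was ADAM8 (-0.93, SE 0.22, adjusted p 0.0315), a call that leaving out single libraries could end (highest adjusted p 0.165).

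Matrix proteins that MMPs cut were mostly called higher in DTC, and none rose from DTC to DTEC. Of 17 tested of 22, 11 were called higher and 2 lower in DTC, with a median log2 change of 1.31. Of all genes tested, 34% were called higher in DTC and 33.3% lower. FN1, fibronectin, went from 95.3 ± 5.89 to 8868 ± 3744 CPM (6.54, SE 0.26, adjusted p 2.41e-10) and VTN, vitronectin, from 0.103 ± 0.0635 to 54.2 ± 8.89 CPM. In DTEC 6 were higher and 9 lower than in untreated WT, beside 26% and 26.3% of all genes tested. FN1 was still at 862 ± 62.8 CPM there and VTN at 2.45 ± 0.653 CPM. From DTC to DTEC 0 rose and 13 fell, beside 28.8% and 26.6% of all genes tested. COL1A1, which is also on the fibroblast list, had 8.30 CPM before treatment, 55.7 at 7 days and 12.4 at 28 days. In KO 3 were higher and 0 lower, beside 2.76% and 1.55% of all genes tested. The higher genes included the fibrillar collagens COL5A1 (1.32, SE 0.15, adjusted p 0.000162) and COL1A1 (0.73, SE 0.11, adjusted p 0.00194).

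Transcription factors of the AP-1, ETS and RUNX families, known as regulators of MMP genes, were more often lower than higher in DTC. Of 19 tested of 23, 6 were called higher and 12 lower (6 and 9 with library totals alone), with a median log2 change of -0.55. Of all genes tested, 34% were called higher in DTC, near the share of this list, and 33.3% lower. ATF3, a stress-induced AP-1 partner, went from 1.82 ± 0.204 to 43.8 ± 4.57 CPM (4.59, SE 0.25, adjusted p 2.3e-09), and ETV4, an ETS factor that responds to ERK signalling, from 112 ± 4.81 to 12.96 ± 0.942 CPM (-3.12, SE 0.10, adjusted p 2.16e-11). In DTEC 5 were higher and 3 lower than in untreated WT, beside 26% and 26.3% of all genes tested. ATF3 was at 7.59 ± 2.78 CPM there (2.06, SE 0.24). FOSL1, an AP-1 subunit, was down from 192 ± 13.2 to 59.4 ± 11.8 CPM (-1.70, SE 0.13, adjusted p 2.18e-07). From DTC to DTEC 11 rose and 4 fell, beside 28.8% and 26.6% of all genes tested. ETV4 was back at 121 ± 5.55 CPM and ETV1 was up by 4.21 (SE 0.38) on the log2 scale. In KO 1 was higher, ELF3 (0.45, SE 0.08, adjusted p 0.00587), and 1 lower, FOSL1 (-0.76, SE 0.13, adjusted p 0.00452). Of all genes tested, 2.76% were called higher in KO and 1.55% lower.

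Across the 12 libraries the members did not form a single pattern. On log2 CPM the highest Pearson correlation among them was 0.938 between MMP7 and TIMP2, and MMP10 with MMP13 gave 0.9, while MMP1 with TIMP3 gave -0.808. These values describe 12 libraries that share 4 group means. MMP10 and MMP13 passed the filter on low counts only through DTC, so the filter favoured a high correlation between them and their value supports nothing. Among 12743 genes compared, the 2 most like TIMP2 were CLDN1, a tight-junction protein (r = 0.998), and GLCCI1 (0.995), and those most like TIMP3 were RNF24 (0.988) and ARHGAP12 (0.987). MMP9 was most like DUSP3 (0.985) and COL15A1 (0.983), MMP7 like KLHDC7B (0.981) and LYSMD1 (0.98), MMP14 like GATM (0.964) and TMPRSS3 (0.963), and MMP1 like PCSK7 (0.959) and WNT9A (0.931). TIMP1, whose groups overlapped, had the weakest partners, TXN2 (0.882) and CHMP4A (0.856).

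Genes overlapping the members held few counts. The exons of MMP1 share 150 bases with WTAPP1 on the other strand, which had 0 to 6 counts a library, and those of MMP9 share 430 bases with SLC12A5-AS1 on the other strand, which had 0 to 17. TIMP2 shares 367 bases with an antisense gene and 198 with CEP295NL, which had no more than 6 counts beside 3088 to 17730 for TIMP2. The library kit marks strand, but the strand setting of the counting is not given in the sources used here, so the counts of MMP9, lowest at 3, could hold reads of the antisense gene. All 120 member values in the table were whole numbers.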

How the data were processed

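Polyadenylated RNA of 12 PC9 libraries, in 4 groups of 3, was sequenced as stranded read pairs, per the labels' protocols, all in 1 labelled batch, so no batch comparison was possible. The authors deposited 1 table of expected counts per Ensembl gene, that is, estimated counts with no scaling to depth. RSEM 1.3.1, Bowtie2 2.5.2, DESeq2 1.40.2 and GRCh38 are named in the submitters' processing notes, with no role given, and the annotation release is not given in the sources used here. Coordinates and exon lengths come from GENCODE 29, in which 58261 of the 62754 identifiers were found.

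Values were rounded to whole counts. The fit used edgeR 4.0.16 and limma 3.58.1 under R 4.3.3, with filterByExpr, TMM scaling, 1 mean per group over all 12 libraries, robust quasi-likelihood F tests, and Benjamini-Hochberg adjustment over the 17115 genes tested. The script was tested on simulated data. Calls need an adjusted p under 0.05. SE stands for the fitted change's standard error, ± for the SD of 3 libraries. Correlations use log2 CPM with a prior count of 2. Alternatives were other scalings and filters, unrounded counts, a replicate block, DESeq2 1.42.0, the compared libraries alone and each library left out. Floors (3 counts over a group) and 95% intervals cover counting error only, since the labels name no molecular identifiers.

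The members and the gene lists (other MMPs and TIMPs, activators and surface regulators, ADAM and ADAMTS, matrix substrates, AP-1, ETS and RUNX factors, and epithelial, fibroblast, endothelial and immune markers) were chosen with earlier results of these data known. Named were all 10 members, per list and comparison the 2 called genes with the largest change and a mean of at least 1 CPM, and per member with a group mean of at least 3 CPM the 2 genes with the most similar pattern. A gene that this rule picked is not reported here. Other genes were named after their values were seen, as stated there.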

Additional observations from a re-analysis of the deposited data

Results flagged for a closer look

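The response to erlotinib differed between 7 and 28 days for 9 of the 10 genes, by the direct test of DTEC against DTC in edgeR's quasi-likelihood fit, where 55.4% of all genes tested were called. On the log2 scale the values of 28 days minus 7 days were -1.98 for MMP1, -1.41 for MMP2, -1.62 for MMP7, -4.05 for MMP9, -2.77 for MMP10, -3.58 for MMP13, -2.43 for MMP14 and -1.43 for TIMP2. TIMP3 was the only member with a positive value among those called, at 1.00. TIMP1 was the member for which the time points were not called different. The MMP2 libraries overlapped between the time points, and its call was lost in 5 of 14 alternatives. MMP10 and MMP13 passed the filter on low counts only through DTC, so their calls support nothing.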

How the results depend on the processing

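Each log2 fold change was recomputed under up to 15 alternatives. In DTC the 7 calls kept their direction and their side of the threshold in every alternative that gave a value, and members called lower ranged from 0 to 1 when single libraries were left out (1, TIMP3, without DTC replicate 1). TIMP1 and TIMP3 in DTC turned sign with total counts (0.134 and 0.115) and with the upper quartile (0.0658 and 0.0448). In DTEC the 5 calls held throughout, while uncalled values turned sign without DTEC replicate 3 (MMP10 -0.149, MMP13 -0.746, TIMP1 -0.110), without untreated WT replicate 1 (MMP9 0.103) or without untreated WT replicate 3 (TIMP1 -0.012). With single libraries left out these values ran from -0.149 to 0.888 for MMP10, -0.746 to 1.48 for MMP13, -0.954 to 0.103 for MMP9 and -0.110 to 0.154 for TIMP1. In KO, MMP13 turned to -0.13 without untreated WT replicate 1 (range -0.13 to 1.22 with single libraries left out), and TIMP1 to 0.0223 with total counts, 0.0204 without KO replicate 2 and 0.0389 without untreated WT replicate 1 (range -0.0909 to 0.0389). The cause was not tested.

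In KO, members called lower went from 0 to 1 (MMP1) with no low-count filter, the replicate block, DESeq2 and the compared libraries alone. Members called higher went from 1 to 3 with the compared libraries alone. Over all genes the 738 KO calls became 1147 with no filter, 1153 with DESeq2, 2656 with the compared libraries alone and 321 to 426 with single libraries left out. The main fit had no replicate block because nothing in the labels ties the numbers of different groups. Same-numbered libraries correlated at -0.013 to 0.179. With the replicate block, calls over all genes numbered 11775 in DTC, 9255 in DTEC, 9732 from DTC to DTEC and 887 in KO (11520, 8955, 9480 and 738 without it). Against untreated WT, 4 of 6 libraries correlated best with their own number for DTC, 3 of 6 for DTEC and 6 of 6 for KO. Between DTC and DTEC 4 of 6 did. Whether same-numbered cultures were handled together is not given. The stricter filter removed MMP2 and MMP13. Depth limits what can be seen of the members with few counts a library outside DTC, among them MMP13, MMP10, MMP2 and MMP9.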
